A study of Mus musculus with 6 samples.

Results

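Transcription of 10 genes that respond to fibroblast growth factor (FGF) signalling or restrain it was compared in the mouse embryo between the germ of the lower molar and oral tissue beside it. The genes were fixed by name: the transcription factors Etv1, Etv4 and Etv5, the phosphatases Dusp4 and Dusp6, the Sprouty genes Spry2 and Spry4, the Sprouty-related genes Spred1 and Spred2, and Il17rd. All 10 were on the array, among 19057 genes in all, each read by its brightest probe. The array held 21 probes for them, and 6 of the 10 had several.

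The tissue came from CD-1 mice, an outbred stock with no engineered allele named in the labels, at embryonic day 13.5, when the molar is a bud of oral epithelium in condensing mesenchyme. By title, 3 libraries were tooth germ and 3 were mandibular oral tissue free of tooth and bone, with 1 library of each tissue from each of 3 litters and several embryos pooled in every library. The source name and tissue fields assign the 2 tissues the other way round. The libraries are called here by their titles, and the sign of every difference would turn if the other fields were right.

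FGFs are secreted ligands that bind receptor tyrosine kinases and switch on Ras and a kinase cascade that ends in ERK. ERK activity leads to transcription of the Etv genes, in part by lifting repression by Capicua, the product of Cic. It also induces its own inhibitors, which act at the receptor, at Ras or on ERK itself, so that these mRNAs are commonly used as readouts of the pathway. In the developing tooth, FGFs pass signals in both directions between epithelium and mesenchyme.

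Etv4, Dusp6 and Etv5 rose in titled tooth germ and Il17rd fell, while the remaining 6 genes did not pass the test. The 3 genes called higher stand beside a background of 2.39% of all genes called higher, and the 1 gene called lower beside 3.42% called lower (limma, adjusted p under 0.05 over 19057 genes). The median log2 difference of the 10 members was 0.13, against 0.0026 over all genes. Values below are signals on the deposited log2 scale, and differences are titled tooth germ minus titled oral tissue on that scale, with moderated standard errors (SE). In pooled tissue, fewer cells of a type and less RNA per cell cannot be told apart.

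The array was deposited already quantile normalized, so every library had a median signal of 7.01. Pearson's r over all probes was 0.995 to 0.997 within a titled tissue and 0.988 to 0.993 across them. Among genes that check the labels, Msx1 of dental mesenchyme lay between 12.36 and 12.67 in titled tooth germ and between 10.78 and 11.41 in titled oral tissue. Shh of dental epithelium lay between 7.62 and 8.18 in titled tooth germ and between 7.01 and 7.30 in titled oral tissue. The muscle factor Myod1 stood at 7.46 to 7.52 in titled tooth germ and at 8.71 to 9.13 in titled oral tissue, and Myog, its partner in muscle differentiation, at 7.90 to 7.95 and at 9.21 to 9.70 in the same order of tissues. These check genes ran with the titles and against the source name and tissue fields.

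The Etv genes encode closely related ETS transcription factors and are direct outputs of FGF signalling. Etv4 (probe ILMN_2778111) had signals of 9.004, 9.16 and 8.94 in titled tooth germ, against 7.96, 7.93 and 8.34 in titled oral tissue. The groups did not overlap, and the lowest tooth germ library stood above the highest oral tissue library, that of litter 3. The log2 difference was 0.96 (SE 0.11, adjusted p = 2.8e-04), or 1.95-fold, and it was the largest among the members. It lay within a 95% interval of 0.72 to 1.20 and ranked 170 of 19057 genes by p.

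Etv5 (probe ILMN_1235329) read 8.79, 8.69 and 8.69 in titled tooth germ, against 8.37, 8.04 and 8.49 in titled oral tissue. Every tooth germ library was again above every oral tissue library, with a smaller gap and a wider spread among the oral tissue libraries (SD 0.061 among tooth germ and 0.23 among oral tissue libraries, n = 3 each). The log2 difference was 0.42 (SE 0.11, adjusted p = 0.0375), or 1.34-fold. The call was lost in 10 of 19 alternatives, where the adjusted p reached 0.212. It was lost without tooth germ library 1 (0.39, adjusted p = 0.136), 2 (0.44, adjusted p = 0.0851) or 3 (0.44, adjusted p = 0.0856), and without oral tissue library 1 (0.46, adjusted p = 0.0650) or 2 (0.30, adjusted p = 0.0928). A dimmer probe of Etv5 also separated the groups, at 8.43, 8.32 and 8.32 in titled tooth germ and 8.06, 7.87 and 8.25 in titled oral tissue, but was not called (0.30, adjusted p = 0.110).

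Etv1 (probe ILMN_2631953) ran the other way in every litter and did not pass the test. Its signals were 8.03, 7.98 and 7.88 in titled tooth germ, against 8.40, 8.19 and 8.11 in titled oral tissue. The groups did not overlap, with titled tooth germ below. The log2 difference was -0.27 (SE 0.086, adjusted p = 0.111), and with litter as a block the same difference was called (adjusted p = 0.0265). It was not called with litter as a random effect (adjusted p = 0.0608 with an estimated correlation). Both dimmer probes of Etv1 overlapped between the tissues and differed by -0.12 and -0.079 on the log2 scale.

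The changes of the related genes were set against each other by taking the log2 ratio of a gene pair in each library. The ratio of Etv4 to Etv1 was higher in titled tooth germ by 1.23 on the log2 scale (1.42, 1.44 and 0.82 in the 3 litters), that of Etv4 to Etv5 by 0.54, and that of Etv5 to Etv1 by 0.69. Each of these had p = 0.10 in an exact two-sided permutation test over the 6 libraries, which is the smallest p that 3 against 3 allows, and an adjusted p = 0.12 over 6 such comparisons. The permutation moved the libraries freely and did not keep their pairing by litter.

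**Figure D1:**
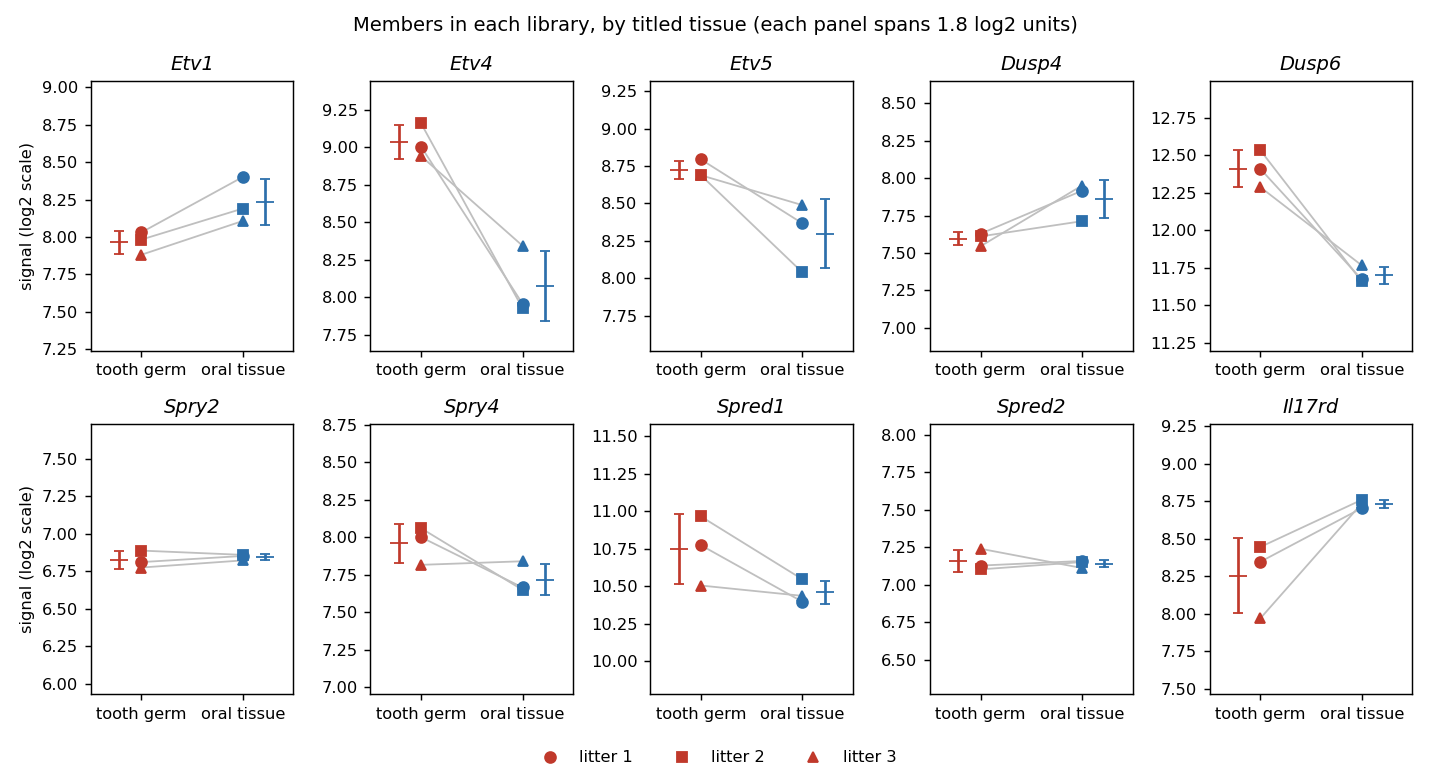
Signal of each member in every library on the deposited log2 scale, titled tooth germ (red) left of titled oral tissue (blue), with grey lines joining libraries of a litter and crossbars showing mean ± SD (n = 3). Etv4, Etv5 and Dusp6 lie higher in every titled tooth germ library, Il17rd, Etv1 and Dusp4 lie lower, and the 4 remaining members overlap.

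Dusp6 encodes a cytoplasmic phosphatase that inactivates ERK, and its mRNA is among the most direct readouts of FGF signalling in the embryo. Its brightest probe (ILMN_2925711) had signals of 12.41, 12.53 and 12.29 in titled tooth germ, against 11.67, 11.66 and 11.77 in titled oral tissue. All 3 tooth germ libraries were above all oral tissue libraries, by far more than the spread within either tissue (SD 0.12 among tooth germ and 0.058 among oral tissue libraries). The log2 difference was 0.71 (SE 0.079, adjusted p = 2.2e-04), or 1.64-fold, with a 95% interval of 0.54 to 0.89.

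All 3 probes of Dusp6 separated the tissues and were called. The second probe read 9.75, 9.80 and 9.21 in titled tooth germ, against 9.001, 8.93 and 8.97 in titled oral tissue (log2 difference 0.62, adjusted p = 0.0186). The dimmest read 7.93, 7.79 and 7.79 in titled tooth germ, against 7.27, 7.34 and 7.49 in titled oral tissue (0.47, adjusted p = 0.0014). Of the 21 member probes, 5 were called higher and 1 lower, beside 1.69% higher and 2.49% lower over all 34885 probes with 1 gene symbol, and probes of the same gene are not independent.

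Dusp4 encodes a related phosphatase that acts on ERK in the nucleus, and it lay lower in titled tooth germ in every litter without passing the test. Its brightest probe (ILMN_2450767) read 7.63, 7.61 and 7.55 in titled tooth germ, against 7.92, 7.71 and 7.95 in titled oral tissue. The tooth germ libraries were all lower, with litter 2 showing the smallest gap. The log2 difference of -0.26 (SE 0.075) was not called (adjusted p = 0.0674). It was called with litter as a block (adjusted p = 0.0350), with litter as a random effect (adjusted p = 0.0398 with an estimated correlation) and without oral tissue library 2 (-0.34, adjusted p = 0.0184), and the 3 dimmer probes of Dusp4 differed by -0.043, 0.00070 and 0.022. The ratio of Dusp6 to Dusp4 was higher in titled tooth germ by 0.98 on the log2 scale, with 1.02, 0.98 and 0.93 in the 3 litters (exact two-sided permutation p = 0.10, adjusted p = 0.12 over the 6 comparisons). This p too was fixed beforehand, because neither gene's groups overlapped and the genes differed in opposite directions.

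Promoter sequences in the RefSeq table (build GRCm38.p6), of 250 bases before and 50 bases from the start site, matched 7 of the 10 members with 9 windows in all. Etv4, Dusp4 and Spry4 had no window there and could not be searched. The windows were searched on both strands for the octamers that Capicua binds, spelled TGAATGAA, TGAATGGA, TCAATGAA and TCAATGGA, and for the ETS site ACCGGAAGT. An octamer was present in 2 of the 9 windows, those of Dusp6 and Spry2, and in 3.84% of all 32851 windows of the table. This 1 spelling of an ETS site was in 0 of the 9 windows and in 1.10% of all windows. Only exact matches were counted, so other ETS sites and near matches to the octamers were not assessed. The Dusp6 window held TCAATGGA on the opposite strand at 2 places that did not overlap, starting 24 bases before the start site and at base 2 from it on. In Spry2, TCAATGAA lay on the opposite strand, starting 54 bases before the start site. The stretch from 100 bases before the start site to base 10 of the transcript is shown for both genes because these are the members' windows with an octamer, and Dusp6 was called while Spry2 was not. Capitals mark the octamers as they read on the gene's own strand, 5′ to 3′, for Dusp6 at chr10:99263131-99263240 on the plus strand and for Spry2 at chr14:105896810-105896919 on the minus strand.
Dusp6: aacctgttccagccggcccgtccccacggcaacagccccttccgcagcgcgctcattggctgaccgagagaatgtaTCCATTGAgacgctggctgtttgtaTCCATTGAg
Spry2: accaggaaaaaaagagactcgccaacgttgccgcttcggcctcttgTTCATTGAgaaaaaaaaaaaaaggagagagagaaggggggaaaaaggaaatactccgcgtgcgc
A match in these letters is a description of the window and not evidence of binding.

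Sprouty proteins are intracellular inhibitors of receptor tyrosine kinase signalling. Spry2 (probe ILMN_2749464) read 6.81, 6.89 and 6.77 in titled tooth germ, against 6.85, 6.86 and 6.82 in titled oral tissue. All 6 values were under 7.01, the median over the table, where signals are dim, and Spry2 was the 1 member with a mean below that median. The log2 difference was -0.020 (95% interval -0.088 to 0.048, adjusted p = 0.820).

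Spry4 (probe ILMN_2825817) read 8.0002, 8.06 and 7.82 in titled tooth germ, against 7.66, 7.65 and 7.84 in titled oral tissue. In litters 1 and 2 the tooth germ was higher, by 0.34 and 0.41, and in litter 3 the tissues were level (-0.024). The log2 difference of 0.24 (SE 0.083) was not called (adjusted p = 0.139), and it was called without both libraries of litter 3 (0.37, adjusted p = 0.0327).

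Spred proteins are membrane-bound relatives of Sprouty that restrain Ras and its kinase cascade. Spred1 (probe ILMN_2490252) read 10.77, 10.97 and 10.51 in titled tooth germ, against 10.40, 10.55 and 10.44 in titled oral tissue. The difference was positive in all 3 litters, but the lowest tooth germ library fell within the range of oral tissue. The log2 difference of 0.29 (SE 0.11) was not called (adjusted p = 0.188) and was called without tooth germ library 3 (0.41, adjusted p = 0.0315). Spred2 (probe ILMN_2598998) read 7.13, 7.10 and 7.24 in titled tooth germ, against 7.16, 7.15 and 7.11 in titled oral tissue, a log2 difference of 0.016 (95% interval -0.086 to 0.12). Its 3 probes overlapped between the tissues, and the largest of their log2 differences was 0.039. All of them lay close to the median of all values. Of the other gene ratios, that of Spry4 to Spry2 was higher in titled tooth germ by 0.26, with 0.38, 0.38 and 0.024 in the 3 litters (exact two-sided permutation p = 0.10, adjusted p = 0.12 over the 6 comparisons). The ratio of Spred1 to Spred2 differed by 0.27, with 0.41, 0.47 and -0.059 in the 3 litters, and it turned in litter 3 (exact two-sided permutation p = 0.30, adjusted p = 0.30 over the 6 comparisons).

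Il17rd, also known as Sef, encodes a membrane protein that inhibits FGF signalling and is itself induced by FGF in the zebrafish embryo. Its brightest probe (ILMN_1248657) read 8.35, 8.45 and 7.97 in titled tooth germ, against 8.71, 8.76 and 8.74 in titled oral tissue. Every tooth germ library was lower, and the oral tissue libraries were close together (SD 0.25 among tooth germ and 0.028 among oral tissue libraries, n = 3 each). The log2 difference was -0.48 (SE 0.11, adjusted p = 0.0239), a signal 1.39-fold higher in titled oral tissue. The call was lost in 7 of 19 alternatives, among them leaving out oral tissue library 1 (-0.49, adjusted p = 0.0556), 2 (-0.47, adjusted p = 0.0649) or 3 (-0.48, adjusted p = 0.0634). A dimmer probe of Il17rd read 7.55, 7.51 and 7.57 in titled tooth germ, against 7.59, 7.65 and 7.67 in titled oral tissue, a log2 difference of -0.089 that was not called (adjusted p = 0.498).

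**Figure D2:**
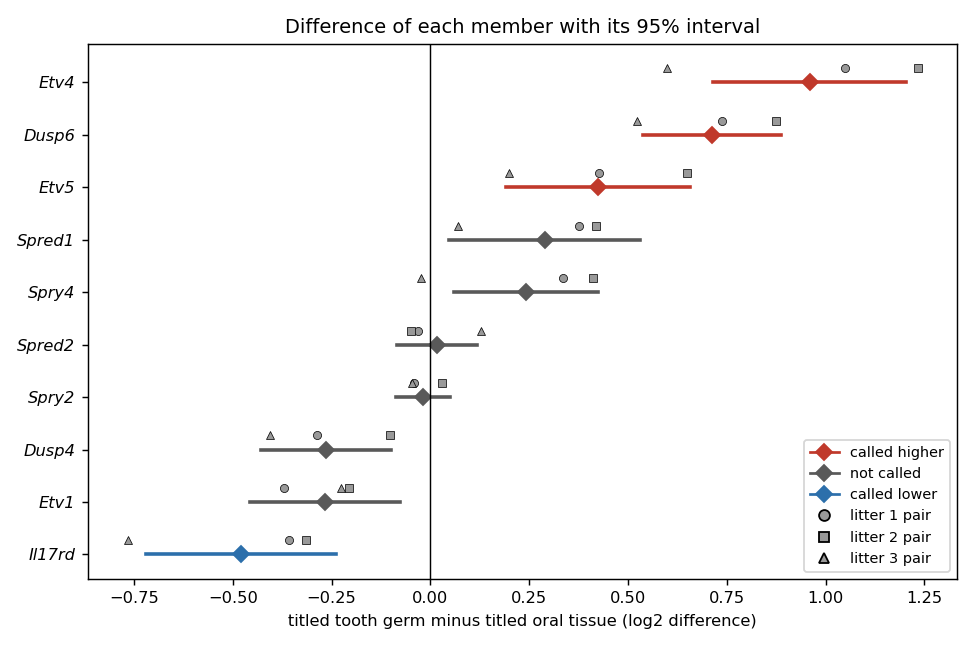
Log2 difference (titled tooth germ minus titled oral tissue) of each member with its 95% interval from limma, and the difference within each litter as grey symbols above the line. Etv4 (0.96), Dusp6 (0.71) and Etv5 (0.42) were called higher and Il17rd (-0.48) was called lower.

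**Figure D3:**
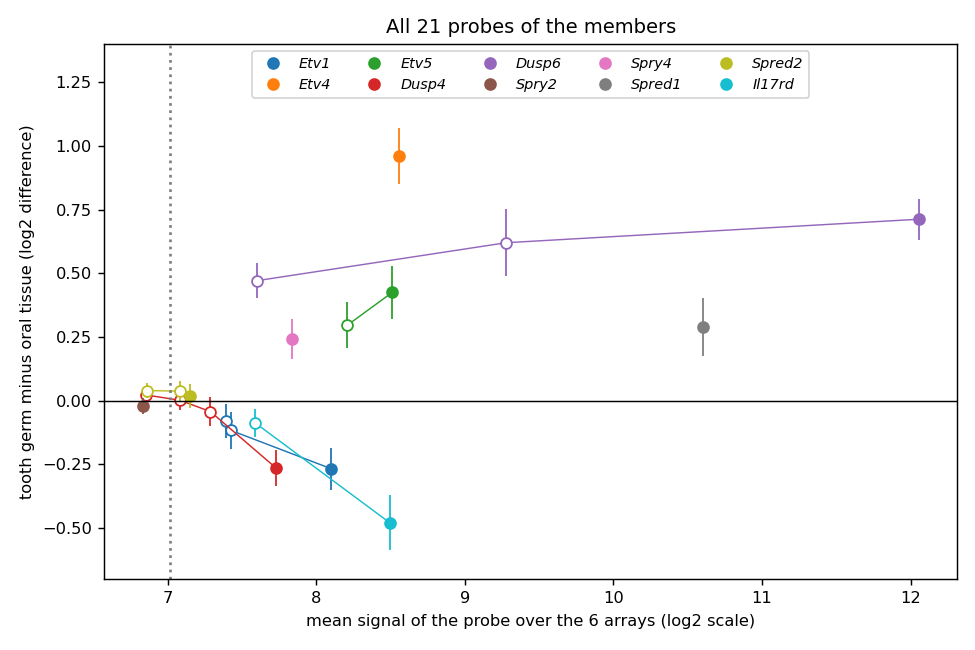
Log2 difference (tooth germ minus oral tissue, ± SE) of all 21 probes against their mean signal over the 6 arrays, with filled symbols for the brightest probe of a gene, open symbols for its other probes and a dotted line at the median of all values (7.01). The 3 probes of Dusp6 lie between 0.47 and 0.71, while the dimmer probes of Il17rd, Dusp4 and Etv1 lie closer to 0 than the brightest ones.

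Ordered by their log2 differences, the members ran from Etv4, Dusp6 and Etv5 through Spred1, Spry4, Spred2 and Spry2 to Dusp4, Etv1 and Il17rd. The 95% intervals of neighbours in this order overlapped in 8 of 9 cases, the exception being Spry2 and Dusp4. These intervals do not use the pairing by litter. Within litters, the gap between neighbours had 1 sign in all 3 litters in 5 of 9 cases, which were Etv4 over Dusp6, Dusp6 over Etv5, Etv5 over Spred1, Spred1 over Spry4 and Spry2 over Dusp4. For Dusp6 over Etv5 the gap was 0.31, 0.23 and 0.32 in litters 1, 2 and 3 (SD 0.053), and for Spred1 over Spry4 it was 0.041, 0.0084 and 0.093 (SD 0.043). The order turned in at least 1 litter for Spry4 and Spred2, Spred2 and Spry2, Dusp4 and Etv1, and Etv1 and Il17rd. No test was run on these gaps, apart from the gene ratios above. The order was set by the means of the same litter differences, which favours gaps of 1 sign. The groups did not overlap for 3 members with titled tooth germ higher, beside 11.9% of all genes, and for 3 with it lower, beside 11.2%. With litter as a block, 3 members were called higher and 3 lower, beside 3.86% and 5.02% of all genes.

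The litters differed in a way that several members shared. All 5 members with a log2 difference above 0.2 (Etv4, Dusp6, Etv5, Spred1 and Spry4) had their largest difference in litter 2 and their smallest in litter 3. This order was chosen after the values were seen. It was present in 193 of 1080 genes (17.9%) with a log2 difference above 0.2 and a mean above the median of all values. For Etv4 the differences were 1.05, 1.23 and 0.60 in litters 1, 2 and 3, and for Dusp6 they were 0.74, 0.87 and 0.52. In litter 3, the oral tissue library had the highest Etv4, Etv5, Dusp6 and Spry4 of its group, and the tooth germ library had the lowest Etv4, Dusp6, Spry4 and Spred1 of its group. The marker lists gave median differences, in the same order of litters, of 0.32, 0.46 and 0.23 for dental epithelium, 0.68, 0.26 and 0.47 for dental mesenchyme, 0.41, 0.39 and 0.41 for surface epithelium and -1.92, -1.62 and -1.86 for skeletal muscle. Their part in the litter pattern was not tested.

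Upstream of the members, the FGF ligands that changed were mostly lower in titled tooth germ. Of 18 ligands 1 rose, 5 fell and 12 were not called (median 0.0080). The count that fell moved by over 1.5 times in 11 of 19 alternatives: it was 2 without tooth germ 1 or 2 or oral tissue 1 or 3, it was 3 without tooth germ 3, and it was 1 without both libraries of litter 1. The signal of Fgf8, a ligand of oral and dental epithelium, stood at 7.16, 7.17 and 7.23 in titled tooth germ, against 6.97, 7.02 and 6.96 in titled oral tissue (log2 difference 0.20, adjusted p = 0.0098). With its 2 probes averaged, Fgf8 differed by 0.12 (limma, adjusted p = 0.0218). Fgf8 averaged 6.98 in titled oral tissue and Fgf6 7.001 in titled tooth germ, both below the median of all values (7.01), where detection was not assessed, so the size of either difference is uncertain. The mesenchymal ligands Fgf10 and Fgf7, which act on epithelium, fell by 0.59 (adjusted p = 0.0296) and 0.56 (adjusted p = 0.0279), and Fgf6, a ligand of skeletal muscle, fell by 0.43 (adjusted p = 0.0028). The remaining ligands that fell were Fgf5 (-0.42, adjusted p = 9.7e-04) and Fgf9 (-0.24, adjusted p = 0.0322). The ligands were not grouped by tissue of origin, so a contrast between epithelial and mesenchymal ligands was not tested. Fgf5 averaged 6.98 in titled tooth germ, also below the median of all values. The calls of Fgf10 and Fgf7 were lost in 8 and 10 of 19 alternatives, and those of Fgf8 and Fgf6 in 3 and 2. Among single libraries, the call of Fgf10 was lost without tooth germ 1 or 2 or oral tissue 1 or 3 (-0.62 to -0.41, adjusted p = 0.0564 to 0.112). The call of Fgf7 was lost without any 1 of the tooth germ libraries or without oral tissue 1 or 3 (-0.57 to -0.43, adjusted p = 0.0747 to 0.101).

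Among 10 receptors and co-receptors, 1 rose, 1 fell and 8 were not called (median -0.024), and a block for litter made the count 2 higher and 1 lower. Fgfr2, a receptor of epithelium and mesenchyme, rose by 0.36 (adjusted p = 0.0296), and Fgfr4, a receptor made in muscle precursors, fell by 0.17 (adjusted p = 0.0222), calls that were lost in 10 and 9 of 19 alternatives. Fgfr2 was not called without any 1 of the tooth germ libraries or without oral tissue 1 or 3 (0.29 to 0.37, adjusted p = 0.0729 to 0.124). Fgfr4 was not called without any 1 of the tooth germ libraries or without oral tissue 3 (-0.18 to -0.14, adjusted p = 0.0533 to 0.109). Fgfr4 averaged 6.97 in titled tooth germ, below the median of all values (7.01), where detection was not assessed. The second gene called with the block was Flrt3, a membrane protein that promotes FGF signalling (0.36, adjusted p = 0.0104 with the block and 0.127 without it). With litter as a random effect the count stayed at 1 higher, and Flrt3 was not called.

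Of the Ras-ERK cascade 18 of 26 listed genes had a probe with 1 symbol, of which 1 rose and 17 were not called (median -0.0029). That gene was Gab1, a docking protein downstream of receptor tyrosine kinases, with 12.20, 11.93 and 12.07 in titled tooth germ, against 11.39, 11.44 and 11.64 in titled oral tissue (log2 difference 0.58, SE 0.092, adjusted p = 0.0024). Without both libraries of litter 1 its adjusted p was 0.0640. With litter as a block Map2k1, a kinase that activates ERK, was called lower (-0.20, adjusted p = 0.0275 with the block and 0.0696 without it). Cic differed by 0.026 (SE 0.077, adjusted p = 0.911).

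Outside the 10 members, 18 further inhibitors of the pathway were measured, of which 1 rose, 1 fell and 16 were not called (median 0.013). Dusp5, a nuclear ERK phosphatase, read 7.33, 7.38 and 7.23 in titled tooth germ, against 7.01, 7.01 and 7.12 in titled oral tissue (log2 difference 0.26, adjusted p = 0.0113). Its call was lost in 4 of 19 alternatives, among them leaving out tooth germ library 2 (0.23, adjusted p = 0.0519). Spry3, another Sprouty gene, fell by 0.24 (adjusted p = 0.0384), and this was not called in 9 of 19, among them those without any 1 of the tooth germ libraries or without oral tissue 1 or 3 (-0.26 to -0.19, adjusted p = 0.0589 to 0.132). With litter as a block 3 rose, the added genes being the phosphatase Dusp2 (0.30, adjusted p = 0.0108) and Errfi1, an inhibitor of epidermal growth factor receptors (0.33, adjusted p = 0.0307).

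Of 19 other genes listed here as induced by ERK, 6 rose, 1 fell and 12 were not called (median 0.062). Egr3, Egr2 and Egr1, zinc-finger factors of the immediate-early class, led with log2 differences of 2.39, 1.77 and 0.89. The value of Egr3 is that of its brightest probe. With its 2 probes averaged the difference was 1.22 (limma, adjusted p = 0.0017), so its size depended on the probe. Egr1 stood at 12.15, 12.12 and 11.49 in titled tooth germ, against 10.999, 10.90 and 11.20 in titled oral tissue. The call of Egr1 was lost without both libraries of litter 1 (0.76, adjusted p = 0.0759) or of litter 2 (0.72, adjusted p = 0.0544). Ccnd1, the cyclin that growth factors induce, fell by 0.38 (SE 0.071, adjusted p = 0.0066). Without both libraries of litter 1 the count that rose was 3, and Ccnd1 was not called (-0.31, adjusted p = 0.143). As with Etv4 and Dusp6, Egr1, Egr2, Egr3 and Phlda3 had their smallest difference in litter 3, at 0.29, 1.09, 1.56 and 0.50. The other genes of the list that rose, Fosl2 and Junb, had theirs in litter 2, at 0.11 and 0.20. Egr2 and Egr3 had their largest difference in litter 1, at 2.15 and 3.09. The share of all genes with their smallest difference in litter 3 was not counted.

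**Figure D4:**
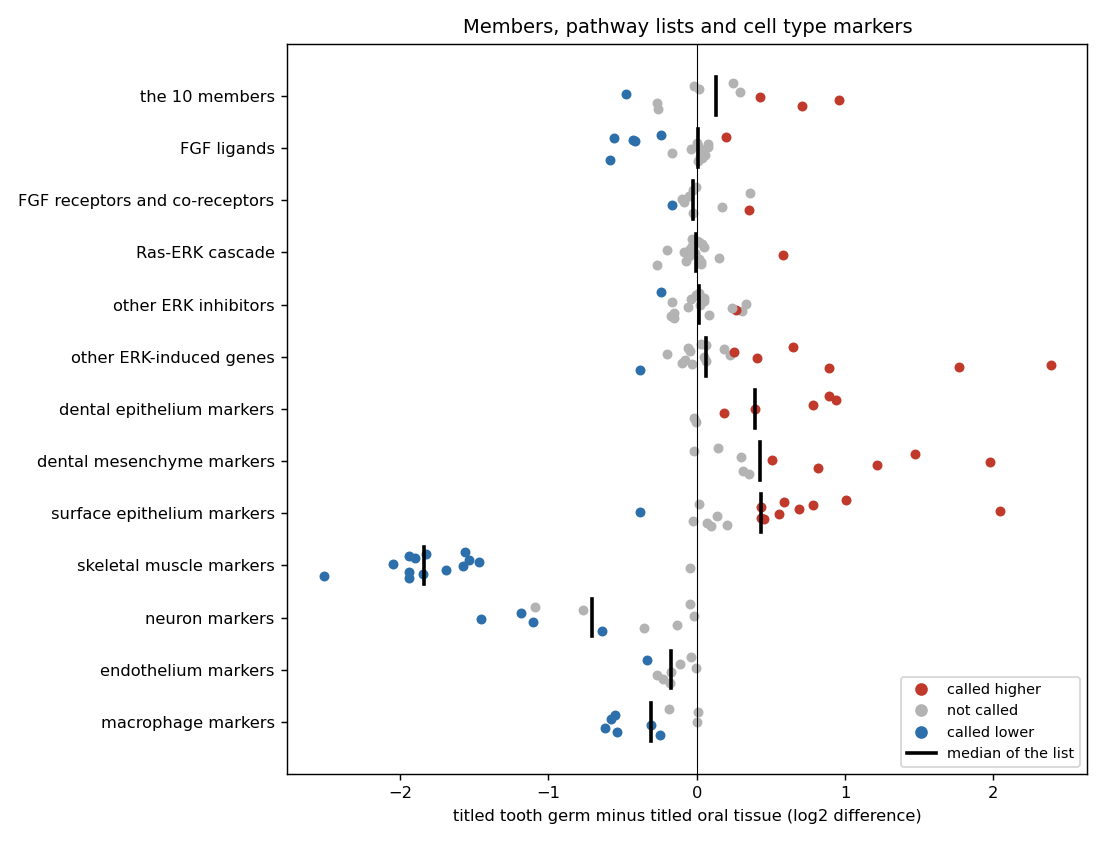
Log2 difference (titled tooth germ minus titled oral tissue) of the 10 members, of the pathway lists and of cell type markers, 1 point a gene, with the median of each list as a black bar. The members' median is 0.13, while the medians of the pathway lists lie between -0.024 and 0.062, and those of the markers run from -1.84 (skeletal muscle) to 0.43 (surface epithelium).

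The markers of the cell types in these tissues moved with the titled groups. Of 16 surface epithelium genes 9 rose and 1 fell, and the list's median signal per library was 9.43 to 9.76 in titled tooth germ and 9.07 to 9.40 in titled oral tissue. Krt17, a keratin of ectodermal appendages, and Trp63, a transcription factor of stratified epithelium, had log2 differences of 2.05 and 1.01. Of 7 dental epithelium genes 5 rose, led by Sostdc1 (0.94) and Sp6 (0.89), with list medians of 7.62 to 7.90 in titled tooth germ and 7.01 to 7.21 in titled oral tissue. Of 10 dental mesenchyme genes 5 rose, led by Inhba (1.98) and Msx1 (1.47), with list medians of 10.39 to 10.64 and 9.24 to 9.69 in the same order of tissues. The median log2 differences of the epithelial lists depended on the processing. They were 0.43 for surface and 0.39 for dental epithelium in the main fit. Averaging each gene's probes gave 0.27 and 0.19 in the same order of lists, and removing dim genes gave 0.44 and 0.78.

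Among markers of other cell types, the genes that were called were lower in titled tooth germ, and their share ran from 13 of 14 for skeletal muscle to 1 of 8 for endothelium. Of 14 skeletal muscle genes 13 fell, among them Actc1 (-2.52) and Mylpf (-2.05), and the list's median signal was 9.10 to 9.29 in titled tooth germ and 10.72 to 11.53 in titled oral tissue. Of 10 neuronal genes 4 fell, led by Isl1 (-1.45) and Nefm (-1.19), while the other 6 did not pass, with list medians of 7.10 to 7.25 in titled tooth germ and 7.48 to 8.63 in titled oral tissue. Of 9 macrophage genes 6 fell, led by C1qc (-0.62) and Laptm5 (-0.58), with list medians of 7.54 to 7.69 and 7.72 to 8.01. Of 8 endothelial genes 1 fell, Tek (-0.33), and 7 were not called (median -0.18), with list medians of 8.73 to 8.78 and 8.94 to 9.11. The part of these cell types in the differences of Etv4, Dusp6, Etv5 and Il17rd was not tested.

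The genes most like each called member were taken as those whose 3 within-litter log2 differences lay nearest to the member's, by the largest gap over the 3 litters, among 4685 genes of high signal. For Etv4 they were Chst2, a sulfotransferase gene, and Hr, the hairless corepressor, with largest gaps of 0.19 and 0.24 and differences of 1.13 and 0.90. Nearest to Dusp6 were Fgf13, an intracellular FGF homologue that is not a receptor ligand (largest gap 0.080), and Phlda3 (0.12). Phlda3 is also on the list of genes counted here as induced by ERK, and its induction by ERK was not tested. Etv5 had Gli3, a transcription factor of the hedgehog pathway (0.081), and Map7, which binds microtubules (0.092). For Il17rd they were Prepl, a peptidase-like gene (0.068), and Dcn, the matrix proteoglycan decorin (0.072).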

How the data were processed

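RNA of 6 libraries was measured on Illumina bead arrays of 1 colour, 3 libraries per titled tissue. The deposited table holds a log2-scale signal for every probe. The authors used lumi 2.8.0, per the submitters' processing notes. The sources used here do not say whether the transformation was a plain log2 or a variance-stabilising one, so folds of dim genes may be understated. The sorted columns differed by at most 8.3e-04, so the authors' table was already quantile normalized, and no further normalization was applied.

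Of 45281 probes, 34885 had exactly 1 symbol in the platform annotation, 18 had several and 10378 had none there. The probe with the highest mean stood for each of 19057 genes, and 34807 probes matched a RefSeq gene by Entrez identifier. Groups follow the titles. limma 3.58.1 (R 4.3.3, lmFit, eBayes with a mean-variance trend, 4 residual degrees of freedom) was run over all genes, with Benjamini-Hochberg adjustment and calls at an adjusted p under 0.05, and again over the 34885 probes. The script was tested on simulated data.

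The members and lists were chosen with earlier results of these data known. Named were all members, up to 3 called genes per direction and pathway list by size, up to 2 called genes per marker list, and the 2 nearest genes of each called member. Flrt3, Map2k1, Dusp2 and Errfi1 were named for their calls with the litter block. Fgf5, Fgf9, Fosl2 and Junb were named to complete the called genes of their direction in their lists. The exact permutation tests of gene ratios and the order of the litters were added after the values were seen. List genes without a probe of 1 symbol were not analysed here.

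Per the labels' descriptions, same-numbered libraries share a litter. Deviations from the group means over 9528 genes correlated at 0.413, 0.233 and 0.266 in the 3 same-numbered pairs and at -0.267 to -0.0724 in the others. Same-numbered libraries thus varied together. Deviations from a group mean cancel within a tissue, so positive values in these pairs force the others down. A shared litter and shared processing cannot be told apart by these values. Alternatives were a litter block (which leaves 2 residual degrees of freedom) or random effect, repeated quantile normalization, median centring, removal of dim genes, averaging a gene's probes, other variance priors, array weights, a minimum log2 difference of 0.5, and leaving out each library or litter.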

Additional observations from a re-analysis of the deposited data

How the results depend on the processing

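Over 19 alternatives the number of members called higher stayed between 2 and 4, and Etv4 and Dusp6 were called higher under each of them (adjusted p of at most 0.0085 and 0.0089). Etv5 and Il17rd lost their calls in 10 and 7 alternatives. The number of members called lower was 3 with litter as a replicate block, which added Etv1 and Dusp4, 2 with litter as a random effect, which added Dusp4 and not Etv1, and 2 with robust variance shrinkage. It was 0 without a mean-variance trend and 0 without both libraries of litter 1 or of litter 3, where 3, 3 and 2 members were lower at an unadjusted p under 0.05 (limma). It was also 0 with a minimum log2 difference of 0.5, which Il17rd does not reach. Leaving out each library in turn gave 0 to 1 lower. Over all genes, 456 were called higher and 651 lower. The counts higher were 736 with the block, 153 with the minimum difference, 195, 268 and 258 without litters 1, 2 and 3, and 282 to 368 without single libraries. The counts lower were 313 with the minimum difference, 354 and 410 without litters 1 and 3, and 452 to 663 without single libraries. The direction turned only for uncalled members near 0: with single libraries left out, Spry2 ran from -0.052 to 0.0049 and Spred2 from -0.025 to 0.043, each turning without tooth germ library 3, and Spred2 was at -0.040 without litter 3. The number of arrays limits precision, and Spry2 and Spred2 lie at the dim end, where detection was not assessed. Causes of these shifts were not tested.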
